A study of Homo sapiens with 12 samples.

Results

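TGFB1, TGFB2 and TGFB3, the receptors TGFBR1, TGFBR2 and TGFBR3, and the latent TGFβ binding proteins LTBP1, LTBP2, LTBP3 and LTBP4 were described across MDA-MB-231 cells treated with TGFβ, with alisertib, or with both. These 10 genes were chosen by name as the core of the TGFβ ligand and receptor system, and all 10 were found among the 57773 genes of the count table. MDA-MB-231 is a human triple-negative breast cancer cell line with a mesenchymal appearance, and every library came from this 1 line, grown in serum-containing medium. Total RNA was sequenced from 12 libraries in 4 groups of 3. The untreated group (CTL) held libraries 1, 2 and 3, the TGFβ group (TGFB) libraries 4, 5 and 6, the alisertib group (ALIS) libraries 7, 8 and 9, and the group given TGFβ and alisertib together (Combination) libraries 10, 11 and 12. All treatments lasted 48 h, and no vehicle is named for the untreated cells. Alisertib is an inhibitor of the mitotic kinase Aurora A. The labels used here give neither the doses nor which TGFβ ligand was added, and nothing in them tells whether replicates were grown apart. The p-values therefore speak only to library-to-library spread, which may be technical.

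TGFβ ligands are made as precursors whose propeptide stays wrapped around the mature dimer and holds it latent. LTBP1, LTBP3 and, more weakly, LTBP4 tie this latent complex to the extracellular matrix, whereas LTBP2 is a microfibril protein that does not bind latent TGFβ covalently. Released ligand binds TGFBR2, which then phosphorylates TGFBR1, and TGFBR1 activates SMAD2 and SMAD3. TGFBR3, also called betaglycan, is a co-receptor without a kinase that is best known for presenting TGFB2 to TGFBR2. In breast cancer cells the pathway is known for driving a mesenchymal, matrix-producing programme and for inducing its own feedback inhibitors.

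On the hg19 build used for the deposited counts, TGFB2 (ENSG00000092969) lies at chr1:218519577-218617961 and TGFBR3 (ENSG00000069702) at chr1:92145902-92371892. TGFB1 (ENSG00000105329) lies at chr19:41807492-41859816 and LTBP2 (ENSG00000119681) at chr14:74964873-75079306. The other members lie at chr14:76424442-76449334 (TGFB3), chr9:101866320-101916474 (TGFBR1), chr3:30647994-30735634 (TGFBR2), chr2:33172039-33624576 (LTBP1), chr11:65306276-65326401 (LTBP3) and chr19:41098789-41135725 (LTBP4). TGFB2, TGFBR3, TGFB1 and LTBP2 are the ligands and the receptor that changed most with TGFβ and the LTBP that rose most, each with 1 listed start in RefSeq, so the 250 bases before their starts are shown to let a reader compare the DNA of genes that moved in opposite directions. The windows are from RefSeq on GRCh38.p14 and are printed 5′ to 3′ along the gene's own strand. The bases just after the start matched a GENCODE transcript of the gene for TGFBR3 and LTBP2, but not for TGFB2 and TGFB1. Capitals mark matches to GTCT or its reverse complement AGAC, the core letters that SMAD3 and SMAD4 contact; CAGACA and TGTCTG contain this core. TGACTCA and TGAGTCA, the AP-1 letters, were also searched and had no match in these 4 windows.
TGFB2, chr1:218345086-218345335, plus strand: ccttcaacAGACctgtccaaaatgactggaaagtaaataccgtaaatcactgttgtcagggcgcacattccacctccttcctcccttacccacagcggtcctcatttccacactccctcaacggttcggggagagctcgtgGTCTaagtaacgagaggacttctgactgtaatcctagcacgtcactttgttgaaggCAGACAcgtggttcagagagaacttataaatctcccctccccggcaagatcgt
TGFBR3, chr1:91886152-91886401, minus strand: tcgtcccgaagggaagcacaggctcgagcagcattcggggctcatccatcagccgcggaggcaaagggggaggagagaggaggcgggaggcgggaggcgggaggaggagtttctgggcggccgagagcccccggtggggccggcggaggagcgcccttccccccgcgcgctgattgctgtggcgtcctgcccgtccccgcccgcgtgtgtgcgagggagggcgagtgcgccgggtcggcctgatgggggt
TGFB1, chr19:41353923-41354172, minus strand: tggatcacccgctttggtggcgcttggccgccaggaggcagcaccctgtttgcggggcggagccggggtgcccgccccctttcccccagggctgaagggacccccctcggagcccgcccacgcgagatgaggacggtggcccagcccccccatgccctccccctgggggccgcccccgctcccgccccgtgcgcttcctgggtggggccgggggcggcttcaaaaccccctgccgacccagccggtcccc
LTBP2, chr14:74612238-74612487, minus strand: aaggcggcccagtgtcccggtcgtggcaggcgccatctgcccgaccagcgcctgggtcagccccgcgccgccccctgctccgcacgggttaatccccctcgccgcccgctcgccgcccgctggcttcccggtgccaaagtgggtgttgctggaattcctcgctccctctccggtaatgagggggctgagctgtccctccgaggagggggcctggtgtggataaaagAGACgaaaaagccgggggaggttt
The TGFB2 window held 3 matches to the core, of which 1 was a CAGACA match, and the LTBP2 window held 1. No match was found in the TGFB1 and TGFBR3 windows, and the TGFB1 window had a GC content of 76.8% against 50.4% for TGFB2. Over 35116 windows of the same length, 77.5% held the core, 13.6% the CAGACA letters and 4.2% the AP-1 letters. Both genes that fell and genes that rose were thus found with and without a match, and a match is a description of letters only.

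Total counts ran from 93701658 to 120619368 reads assigned to genes per library, and mitochondrial genes took 3.22% to 3.86% of them. As a check of the labels, PMEPA1, a feedback inhibitor of TGFβ signalling, was at 82.8 ± 2.95 CPM (counts scaled to library size with TMM factors; SD, n = 3) in untreated and 1098 ± 13.4 CPM in TGFβ libraries. AURKA, the kinase that alisertib inhibits, was at 287 CPM in untreated, 175 CPM in TGFβ, 336 CPM in alisertib and 222 CPM in combination libraries on average, and a transcript level does not check the alisertib label. VIM, CD44, MSN, AXL, CAV1 and KRT18 were high throughout, and ESR1 and PGR stayed under 1 CPM in every library, whereas ERBB2, the remaining receptor of the triple-negative definition, was at 48.5 to 73.2 CPM. The 6 leukocyte markers summed to 1.65 to 3.39 CPM in untreated, 1.09 to 1.22 CPM in TGFβ, 1.62 to 1.97 CPM in alisertib and 0.954 to 1.07 CPM in combination libraries, with 5 of 6 under 1 CPM in every library. The 4 matched endothelial markers summed to 2.80 to 3.11, 1.71 to 2.03, 3.31 to 3.79 and 2.14 to 2.46 CPM in the same order. The 6 luminal markers, mostly KRT8 and KRT19, summed to 308 to 437, 422 to 530, 333 to 420.3 and 386 to 494 CPM, with 3 of 6 under 1 CPM in every library. The 6 fibroblast markers summed to 17.1 to 21.6 CPM in untreated, 131 to 159 CPM in TGFβ, 15.0 to 18.9 CPM in alisertib and 93.8 to 133 CPM in combination libraries. Between untreated and TGFβ libraries COL1A1 went from 4.01 to 95.2 CPM and PDGFRB from 14.4 to 50.3 CPM, while 3 of the 6 markers were under 1 CPM in every library; the part of these marker genes in the changes of the members was not tested. In bulk RNA, fewer cells expressing a gene and less RNA per cell cannot be told apart.

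One library of each group stood apart: untreated 1, TGFβ 6, alisertib 9 and combination 10. Across 13725 genes, the deviation of each of these libraries from its group fell with the GC content of the transcript, with Spearman correlations from -0.737 to -0.65, whereas the other 8 libraries gave values from 0.152 to 0.735. The members span much of this range, from TGFB2 at 38.9% and TGFBR1 at 39.0% GC through LTBP2 at 57.2% and TGFB1 at 63.5% to LTBP4 at 66.7% and LTBP3 at 67.8%. In untreated library 1, LTBP4 was lower by 0.96 and LTBP3 lower by 0.94 on the log2 scale than the mean of untreated 2 and 3. TGFB1 was lower by 0.53 there, and LTBP2 by 0.24, while TGFBR3 was higher by 0.11. LTBP4, LTBP3 and TGFB1 were thus the members least tightly measured among the untreated libraries. Alisertib 9 stood apart less in these genes, by -0.29 for LTBP4, -0.07 for LTBP3 and -0.17 for TGFB1. Values without these 4 libraries are given below wherever a call depended on them. That setting keeps only untreated 2 and 3, TGFβ 4 and 5, alisertib 7 and 8, and combination 11 and 12. The 4 libraries were picked by their deviation in these same data. P-values from leaving them out, or from a covariate for them, may therefore be too low.

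**Figure D1:**
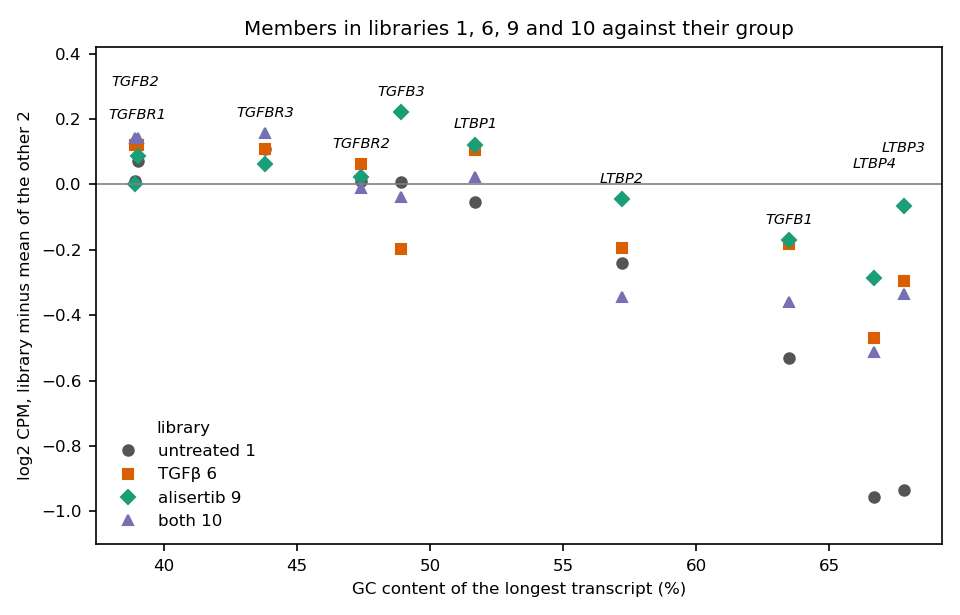
Each point is 1 member in untreated 1, TGFβ 6, alisertib 9 or combination 10; the y axis gives its log2 CPM minus the mean of the other 2 libraries of that group, the x axis the GC content of the longest transcript in percent. TGFB2, TGFBR1 and TGFBR3, which have the lowest GC, sit above 0, and LTBP2, TGFB1, LTBP4 and LTBP3, which have the highest, sit below it, down to -0.96 for LTBP4 in untreated 1.

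Compared per kilobase of transcript (RPKM, from TMM-scaled counts and the deposited gene length), TGFBR2 was the most abundant member in untreated cells at 40.0 ± 0.222 RPKM (SD, n = 3). TGFB2 followed at 35.0 ± 0.635 RPKM, then TGFBR1 at 17.7 ± 1.06 RPKM and TGFB1 at 7.37 ± 1.46 RPKM. LTBP1 at 4.87 ± 0.202 RPKM and TGFBR3 at 4.69 ± 0.209 RPKM overlapped and were not separated beyond their spread. The other LTBPs were lower, with LTBP2 at 3.11 ± 0.299 RPKM, LTBP4 at 2.11 ± 0.719 RPKM and LTBP3 at 0.874 ± 0.301 RPKM. TGFB3 was the scarcest at 0.298 ± 0.0438 RPKM, resting on 129 to 172 reads per untreated library. After TGFβ the order was different: TGFBR2 stayed first at 55.0 ± 1.54 RPKM, and LTBP2 at 19.2 ± 1.55 RPKM, TGFB1 at 16.7 ± 1.44 RPKM and TGFBR1 at 16.6 ± 0.828 RPKM came next with ranges that overlapped. TGFB2 then stood at 13.2 ± 0.669 RPKM and TGFBR3 at 1.47 ± 0.120 RPKM, above TGFB3 only.

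**Figure D2:**
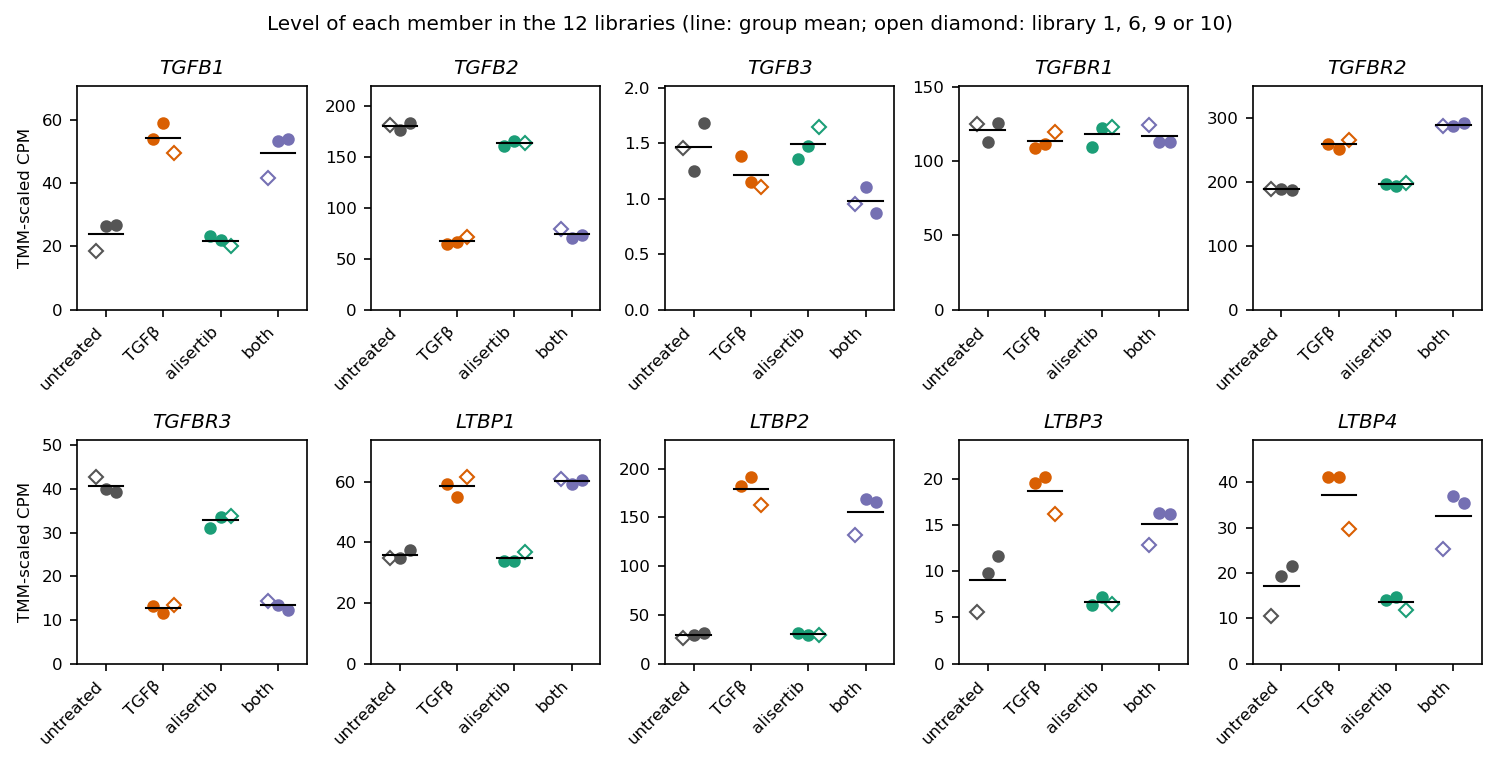
TMM-scaled CPM (y axis, from 0) of each member in each library, by group (x axis); a line marks the group mean and an open diamond the library that stood apart in its group. TGFB1, TGFBR2 and the 4 LTBPs sit higher and TGFB2 and TGFBR3 lower in every TGFβ and combination library than in any untreated library. The share of all tested genes that separate in this way was not counted.

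The first comparison asked which members responded to TGFβ alone. TGFβ lowered TGFB2 and TGFBR3, raised TGFB1, TGFBR2 and all 4 LTBPs, and gave no called difference for TGFB3 and TGFBR1. Of the 10 members 8 passed the test (edgeR quasi-likelihood test, Benjamini-Hochberg adjusted p under 0.05 over 20571 genes), 6 higher and 2 lower. Of all tested genes 38.6% passed, 18.5% higher and 20.1% lower. The median log2 fold change over all tested genes was -0.006. The same 8 members passed in every alternative setting tried.

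Among the ligands, TGFB2, the isoform that depends most on betaglycan, was at 181, 177 and 183 CPM in untreated 1, 2 and 3 and at 64.8, 67.0 and 71.5 CPM in TGFβ 4, 5 and 6. The groups were far apart, and the log2 fold change was -1.41 ± 0.05 (SE; 2.66-fold lower; adjusted p = 3.60e-11, edgeR). TGFB1, the most widely expressed isoform, was at 18.4, 26.5 and 26.7 CPM in the untreated and 53.9, 59.0 and 49.7 CPM in the TGFβ libraries. Every TGFβ library was above every untreated one, with untreated 1 the lowest, and the log2 fold change was 1.18 ± 0.13 (2.27-fold; adjusted p = 5.16e-06, edgeR). Within the 8 libraries that did not stand apart the log2 difference of TGFB1 was 1.08, and between untreated 1 and TGFβ 6 alone it was 1.43. TGFB3 was at 1.46, 1.25 and 1.68 CPM before and 1.39, 1.15 and 1.10 CPM after TGFβ. These ranges overlapped, and the log2 fold change of -0.27 ± 0.16 did not pass (adjusted p = 0.202, edgeR).

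TGFB1 shares its locus with other genes, and the library kit does not mark strand. HNRNPUL1, an RNA-binding protein gene whose locus overlaps that of TGFB1, drew 8.28 times as many reads, and its log2 fold change was -0.02 ± 0.04 (adjusted p = 0.800, edgeR). CCDC97, which also overlaps, gave -0.14 ± 0.09 (adjusted p = 0.264, edgeR). CTC-435M10.3, a protein-coding model with fewer reads than TGFB1, gave 0.31 ± 0.22 (adjusted p = 0.308, edgeR), and the little-read TMEM91 gave -0.49 ± 0.18 (adjusted p = 0.0451, edgeR). None of these 4 neighbours was called higher with TGFβ. HNRNPUL1 was called lower for alisertib (-0.189, adjusted p = 0.0192, edgeR) and for the combination (-0.202, 0.00192) against untreated cells. It was also lower for combination against TGFβ (-0.185, 0.0445). Whether reads of these neighbours enter the TGFB1 counts was not tested. TGFB3 overlaps IFT43, a ciliary transport gene that drew 9.48 times as many reads and had a log2 fold change of 0.09 ± 0.08 (adjusted p = 0.411, edgeR). With at most 172 reads per library, the TGFB3 values could include reads of its neighbour, which was not tested.

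Among the receptors, TGFBR3 was at 42.7, 39.9 and 39.2 CPM in the untreated and 13.3, 11.5 and 13.3 CPM in the TGFβ libraries. All TGFβ values were less than any untreated value, and the log2 fold change was -1.67 ± 0.08 (3.19-fold lower; adjusted p = 3.13e-10, edgeR). TGFBR2, the ligand-binding kinase, was at 189, 189 and 187 CPM before and 259, 252 and 266 CPM after TGFβ. The untreated libraries were nearly equal and all below the TGFβ ones, and the log2 fold change was 0.46 ± 0.04 (1.38-fold; adjusted p = 1.97e-07, edgeR). TGFBR1, the signalling kinase, was at 125, 113 and 126 CPM before and 109, 112 and 119.9 CPM after. Its ranges overlapped and its log2 fold change of -0.09 ± 0.06 did not pass (adjusted p = 0.273, edgeR). The 3 receptors therefore gave 1 higher, 1 lower and 1 uncalled value under the same treatment.

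All 4 LTBPs rose, by unequal amounts. LTBP2 was at 25.9, 29.8 and 31.2 CPM in the untreated and 182, 191 and 163 CPM in the TGFβ libraries. The gap between the groups was many times the spread, and the log2 fold change of 2.62 ± 0.10 (6.17-fold; adjusted p = 4.49e-11, edgeR) was the largest of the 10 members in size. LTBP1, the main carrier of latent TGFB1, was at 34.8, 34.9 and 37.4 CPM before and 59.3, 55.1 and 61.5 CPM after, without overlap, for a log2 fold change of 0.72 ± 0.06 (1.64-fold; adjusted p = 1.29e-07, edgeR). LTBP3 was at 5.58, 9.80 and 11.6 CPM before and 19.5, 20.1 and 16.2 CPM after TGFβ. LTBP4 was at 10.5, 19.4 and 21.5 CPM before and 41.1, 41.1 and 29.7 CPM after. For both genes untreated 1 was the lowest and TGFβ 6 the lowest of its group, yet the groups did not overlap. Their log2 fold changes were 1.05 ± 0.20 for LTBP3 (2.07-fold; adjusted p = 0.000597) and 1.12 ± 0.22 for LTBP4 (2.18-fold; adjusted p = 0.000917, edgeR). With a GC and length correction they came to 0.65 for LTBP3 and 0.72 for LTBP4, and without the 4 libraries that stood apart to 0.89 and 1.01, all still past the threshold.

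These changes shifted the make-up of each family. Among the ligands, TGFB2 made up 82.1 ± 2.91% of the summed RPKM in untreated and 43.7 ± 3.05% in TGFβ libraries, and TGFB1 made up 17.2 ± 2.94% and 55.5 ± 3.02% (SD, n = 3). The TGFB2 to TGFB1 ratio of RPKM lay between 4.20 and 6.19 in the untreated libraries. In the TGFβ libraries it lay between 0.714 and 0.905, so that per kilobase TGFB1 was the more abundant ligand transcript in all 3. In CPM, without division by length, TGFB2 stayed higher there, at 64.8, 67.0 and 71.5 against 53.9, 59.0 and 49.7. The RPKM ratio was 1.19 in combination 10, against 0.836 and 0.851 in combination 11 and 12. The summed ligand level lay between 41.2 and 44.2 RPKM in the untreated libraries and between 29.5 and 31.5 RPKM in the TGFβ libraries. Among the receptors, the share of TGFBR3 went from 7.52% to 2.01% and that of TGFBR2 from 64.1% to 75.3%, and the TGFBR2 to TGFBR1 ratio from a range of 2.16 to 2.43 to one of 3.23 to 3.45. Among the LTBPs, LTBP1 was first in untreated cells with 44.8% and LTBP2 first after TGFβ with 57.1%, while the summed level went from 11.0 ± 1.47 to 33.6 ± 2.16 RPKM. With 3 libraries against 3, the exact two-sided permutation test of a share cannot go below 0.1; the TGFB2 share reached that value (0.167 after adjustment over 50 share comparisons). In the alisertib group the shares of TGFB2, at 81.8%, and LTBP1, at 46.2%, lay near those of the untreated group. The TGFBR3 share was 5.85% to 6.18% with alisertib against 7.24% to 7.78% in untreated libraries. That of LTBP2 was 30.5% to 32.6% against 27.4% to 29.7%, and both reached 0.1 in the permutation test (0.167 after adjustment). In the combination group the share of TGFB2, at 48.3%, overlapped that of the TGFβ group. The LTBP2 share averaged 54.8% there, with a range of 52.7% to 56.0% against 56.2% to 58.6% in TGFβ libraries. This difference of -2.30 percentage points also reached 0.1 in the permutation test (0.167 after adjustment).

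**Figure D3:**
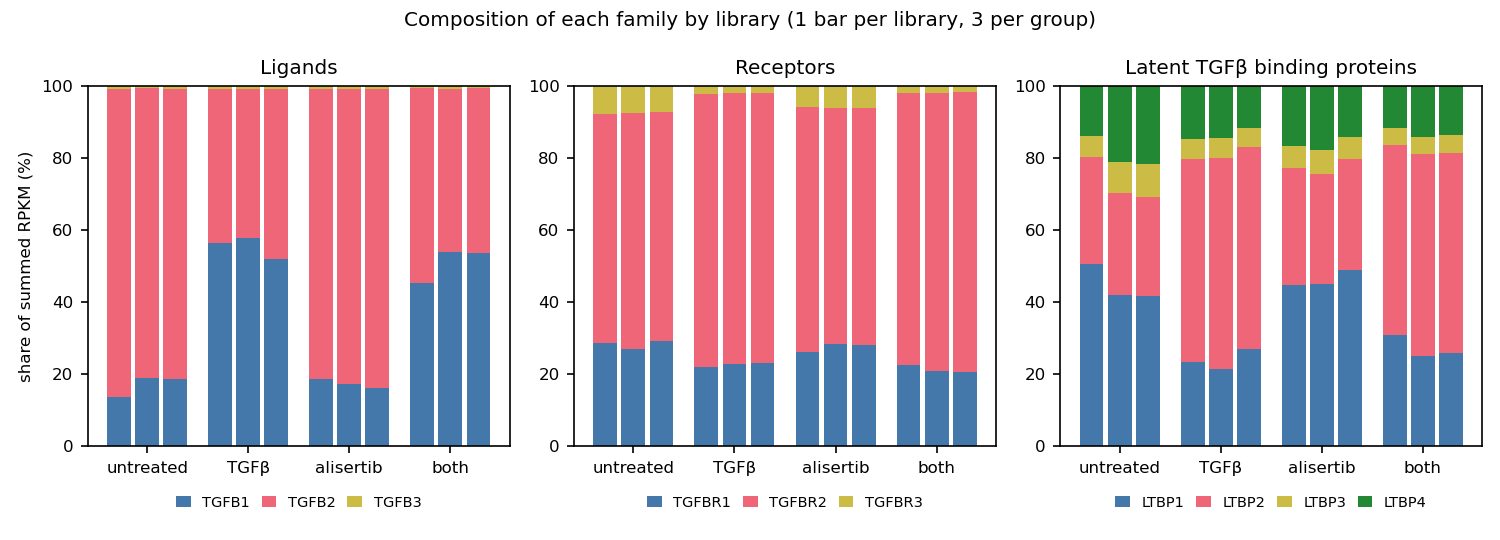
Each bar is 1 library and its segments give the percent of the family's summed RPKM (y axis, 0 to 100) taken by each ligand, receptor or LTBP, with 3 bars per group (x axis). TGFB1 holds 17.2% of the ligand sum on average in untreated and 55.5% in TGFβ libraries, and LTBP2 holds 28.5% and 57.1% of the LTBP sum.

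The second comparison asked whether alisertib alone changed these genes. A single member passed, TGFBR3, which was lower. Of all tested genes 6.74% passed, 3.55% higher and 3.19% lower. TGFBR3 was at 31.1, 33.7 and 33.8 CPM in alisertib 7, 8 and 9, below all 3 untreated libraries. Its log2 fold change was -0.31 ± 0.07 (1.24-fold lower; adjusted p = 0.0240, edgeR). The log2 fold change stayed between -0.32 and -0.27 in all 15 alternative settings, but the call was lost in 8 of them, among them the fit of only the 6 libraries compared (adjusted p = 0.0519) and the removal of alisertib 7 (0.107), untreated 2 (0.0573), untreated 3 (0.0571), alisertib 8 (0.0675) or alisertib 9 (0.0584).

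Of the other 9 members none passed under alisertib. TGFB2 was at 161, 166 and 164 CPM, below every untreated library, with a log2 fold change of -0.14 ± 0.05 (adjusted p = 0.126, edgeR). TGFBR2 was at 197, 193 and 198 CPM, above every untreated library, with 0.06 ± 0.04 (adjusted p = 0.435, edgeR). TGFB1 was at 23.4, 22.0 and 20.1 CPM, LTBP3 at 6.33, 7.15 and 6.43 CPM, and LTBP4 at 14.0, 14.8 and 11.8 CPM, all within or overlapping the untreated range. LTBP1 at 33.8, 33.8 and 36.8 CPM, LTBP2 at 31.4, 29.1 and 29.3 CPM, and TGFBR1 at 109.8, 123 and 123 CPM overlapped their untreated libraries too, with adjusted p from 0.785 to 0.843 (edgeR). How the 3 GC-rich genes TGFB1, LTBP3 and LTBP4 compared depended on the libraries used. In the 8 other libraries the log2 difference was -0.23 for TGFB1, -0.67 for LTBP3 and -0.50 for LTBP4, whereas alisertib 9 against untreated 1 gave 0.13, 0.20 and 0.17. Without the 4 libraries that stood apart, 5 of the 10 members passed in this comparison, with adjusted p = 0.00310 for TGFB1, 0.0104 for TGFB2, 0.00156 for TGFBR3, 4.43e-06 for LTBP3 and 2.00e-06 for LTBP4 (edgeR). Calls over all genes rose as well in that setting, to 5073 from 1387 in the main model. Its p-values may be too low, because the 4 libraries were picked from these same data. Without untreated 1 alone, LTBP3 passed at -0.69 (adjusted p = 0.00295, edgeR). With a GC and length correction LTBP3 came to -0.20 and LTBP4 to -0.11 and neither passed.

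Then TGFβ was compared in the presence of alisertib, in 6 libraries that the TGFβ comparison did not use. Combination against alisertib called 9 of 10 members, 6 higher and 3 lower. Of all tested genes 38.4% passed, 19.4% higher and 19% lower. TGFB2 was at 79.4, 70.9 and 72.9 CPM in combination 10, 11 and 12, for a log2 fold change of -1.14 ± 0.05 (2.20-fold lower; adjusted p = 4.39e-10, edgeR). TGFBR3 was at 14.4, 13.4 and 12.4 CPM, a change of -1.30 ± 0.08 (2.45-fold lower; adjusted p = 6.12e-09, edgeR). All combination libraries were below all alisertib libraries for both genes. LTBP2 was at 132, 169 and 166 CPM, with combination 10 the lowest, and rose by 2.38 ± 0.10 (5.20-fold; adjusted p = 1.62e-10, edgeR). TGFB1, at 41.8, 53.3 and 53.9 CPM, rose by 1.19 ± 0.13, and TGFBR2, at 287, 287 and 292 CPM, by 0.56 ± 0.04. LTBP1, at 61.0, 59.4 and 60.7 CPM, rose by 0.79 ± 0.06, LTBP3 by 1.19 ± 0.20 and LTBP4 by 1.27 ± 0.22. With the GC and length correction LTBP3 came to 0.63 and LTBP4 to 0.72, and both passed. TGFBR1, at 125, 113 and 113 CPM, again did not pass, at -0.02 ± 0.06 (adjusted p = 0.839, edgeR). The 8 members called for TGFβ alone were all called here in the same direction, and the same 9 members passed in all alternative settings.

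TGFB3 was the additional member. It was at 1.35, 1.48 and 1.65 CPM in the alisertib and 0.954, 1.11 and 0.867 CPM in the combination libraries, without overlap. The log2 fold change was -0.61 ± 0.16 (1.53-fold lower; adjusted p = 0.00742, edgeR), against -0.27 for TGFβ alone. The difference between these effects was -0.34 ± 0.22 and did not pass (adjusted p = 0.9999, edgeR), so TGFB3 was not shown to respond differently with alisertib. Its combination values rest on 99 to 120 reads.

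Against untreated cells the combination called 9 of 10 members, again 6 higher and 3 lower, beside 39.7% of all tested genes, 19.4% higher and 20.3% lower. This comparison shares its untreated libraries with the first and its combination libraries with the preceding one. The log2 fold changes were 1.06 for TGFB1, -1.28 for TGFB2, -0.58 for TGFB3, 0.62 for TGFBR2, -1.60 for TGFBR3, 0.76 for LTBP1 and 2.42 for LTBP2. LTBP3, at 12.9, 16.3 and 16.1 CPM, gave 0.75 ± 0.19 (adjusted p = 0.00689, edgeR), and LTBP4, at 25.4, 36.9 and 35.4 CPM, gave 0.93 ± 0.22 (adjusted p = 0.00365, edgeR). All 9 were without overlap between the groups, but the share of all tested genes without overlap was not counted. The LTBP3 and LTBP4 values were the least firm. Without a filter on low counts LTBP3 (adjusted p = 0.0705, edgeR) and LTBP4 (0.0521) did not pass. In the fit of the 2 groups alone LTBP3 did not (0.0531), and with the GC and length correction LTBP3 and LTBP4 came to 0.43 and 0.60. Leaving out untreated 1 gave 0.50 for LTBP3 and 0.67 for LTBP4.

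**Figure D4:**
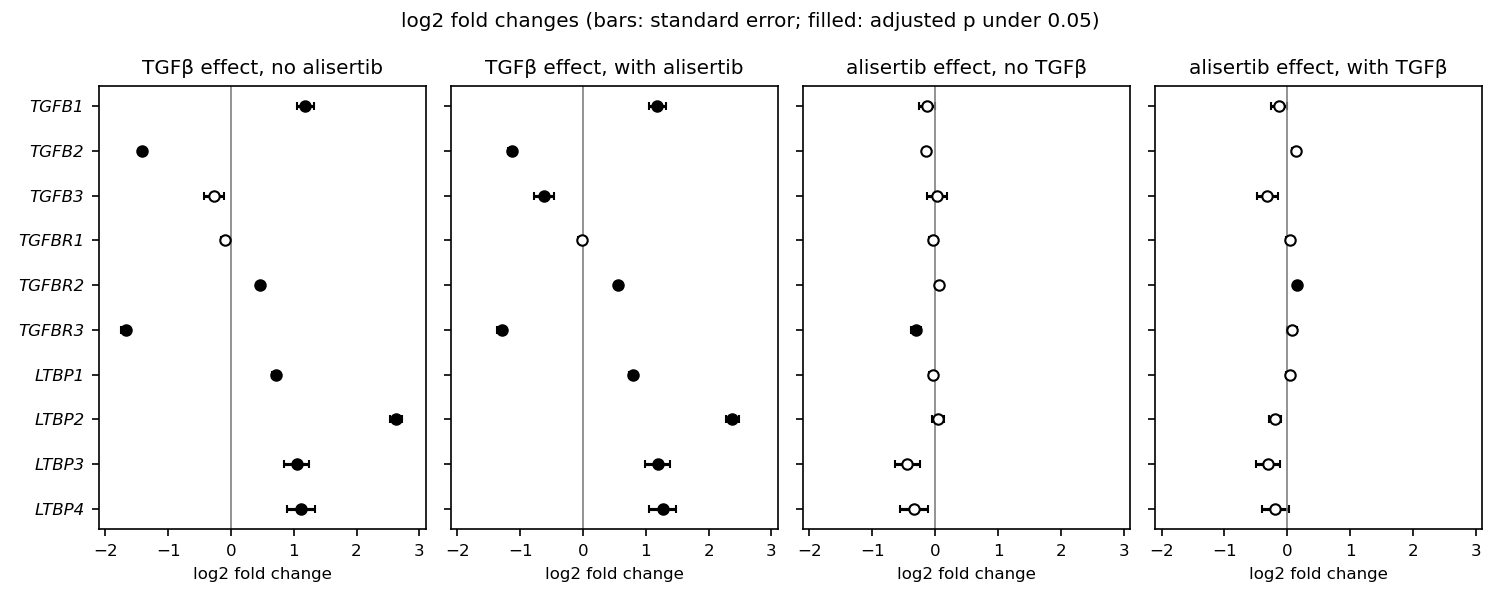
log2 fold change (x axis) of each member (y axis) for TGFβ without and with alisertib and for alisertib without and with TGFβ; bars are standard errors and filled points passed at an adjusted p under 0.05. The TGFβ panels run from -1.67 for TGFBR3 to 2.62 for LTBP2, whereas all alisertib values lie between -0.44 and 0.16.

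The next comparison asked what alisertib changed in cells that also received TGFβ. Combination against TGFβ called 1 member, TGFBR2, which was higher. Of all tested genes 2.08% passed, 1.19% higher and 0.89% lower. The combination libraries at 287, 287 and 292 CPM were all above the TGFβ libraries at 259, 252 and 266 CPM, and the log2 fold change was 0.16 ± 0.04 (1.12-fold; adjusted p = 0.0475, edgeR). The log2 fold change stayed between 0.14 and 0.18 in all 15 settings. The call was lost in 10 of them, including the removal of any 1 of the 6 libraries, where the adjusted p ran from 0.0741 to 0.243. It was kept without the 4 libraries that stood apart (TGFBR2 0.18, adjusted p = 0.000952), with them as a covariate (0.00130) and with the GC and length correction (0.00291). For the other 9 members the ranges of the groups overlapped. Their log2 fold changes ran from -0.32 ± 0.16 for TGFB3 to 0.14 ± 0.05 for TGFB2, with adjusted p = 0.451 and 0.262 (edgeR). LTBP2 gave -0.20 ± 0.09 (adjusted p = 0.386, edgeR); it passed at -0.16 without the 4 libraries that stood apart (0.0168), at -0.20 with them as a covariate (0.00460) and at -0.16 with the GC and length correction (0.0149). Without those 4 libraries LTBP3 (-0.29, adjusted p = 0.0218) and LTBP4 (-0.18, 0.0440) passed as well, and with the covariate TGFB2 did (0.13, 0.0250).

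Whether the effect of TGFβ differed with and without alisertib was tested as an interaction over all 12 libraries. No member passed by edgeR or by DESeq2, beside 0.282% of all tested genes by edgeR, 0.117% higher and 0.165% lower. An unadjusted p under 0.05 was found for 2 members, and the share of all tested genes under that limit was not counted. The 2 members were TGFBR3, with a TGFβ effect of -1.67 without and -1.30 with alisertib (difference 0.38 ± 0.11, adjusted p = 0.248, edgeR), and TGFB2, with -1.41 and -1.14 (difference 0.28 ± 0.07, adjusted p = 0.199, edgeR). These are the 2 members lowered by TGFβ alone, and each TGFβ effect was smaller in size with alisertib. Both also started lower with alisertib. TGFBR3 averaged 40.6 CPM in untreated and 32.8 CPM in alisertib libraries, and 12.7 and 13.4 CPM in TGFβ and combination libraries. TGFB2 averaged 180, 164, 67.8 and 74.4 CPM in the same order. Without the 4 libraries that stood apart both genes passed, TGFB2 at 0.26 (adjusted p = 0.00664) and TGFBR3 at 0.34 (0.0442), as they did with those libraries as a covariate (TGFB2 0.00371, TGFBR3 0.00811) or with the GC and length correction (TGFB2 0.0197, TGFBR3 0.0143). In the same order these settings called 744, 382 and 339 of all genes, against 58 in the main model. LTBP2 gave -0.25 ± 0.13 and passed with the covariate (adjusted p = 0.0491) and the GC correction (0.0127) but not in the main model (0.983). LTBP4 passed only when the 4 libraries were left out (0.31, adjusted p = 0.0318), and came to 0.001 with the GC correction. The remaining members passed in none of these settings.

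Genes that work with the members were followed in 5 lists, whose counts stand beside the 38.6% of all tested genes called with TGFβ. Of 18 tested genes listed for the activation or handling of latent TGFβ, 10 rose and 5 fell with TGFβ. Their median log2 fold change was 0.83, against -0.006 over all genes. Not every gene of this list is itself an activator. MMP9 and MMP2, the gelatinases, rose 31.9-fold (log2 4.997 ± 0.18, adjusted p = 2.21e-11) and 6.96-fold (2.80 ± 0.21, 6.71e-08), and PLAU, the urokinase that generates plasmin, rose 5.53-fold (edgeR). MMP9 was at only 0.861 ± 0.159 CPM in untreated cells. MMP2 was lower still, at 0.614 ± 0.207 CPM in untreated and 4.30 ± 0.205 CPM in TGFβ libraries. Of 9 matrix partners of the LTBPs, 5 rose and 1 fell, with a median of 1.41. FN1, the fibronectin onto which LTBP1 is laid down, rose by 2.81 ± 0.08 on the log2 scale, MFAP2, a microfibril protein, by 1.85 ± 0.16 and LOX, a collagen and elastin crosslinker, by 1.66 ± 0.07. FN1 was at 829 ± 73.9 CPM in untreated and 5825 ± 281 CPM in TGFβ libraries.

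The other lists were split. Of 10 ligand traps and co-receptors 3 rose and 3 fell, with a median of -0.006: VASN, a membrane protein that binds TGFβ, rose by 2.61 ± 0.25, NRP2, a neuropilin, rose by 1.44 ± 0.04, and LRG1, a secreted modulator of TGFβ receptor signalling, fell by 1.75 ± 0.21 on the log2 scale. Of 8 other receptors of the superfamily 2 rose and 1 fell, a share close to the 38.6% of all tested genes. ACVR1 rose by 0.59 ± 0.08, BMPR2 by 0.51 ± 0.06, and ACVR2B fell by 0.39 ± 0.07. Of 20 genes of receptor turnover and feedback 8 rose and 7 fell. PMEPA1 rose by 3.73 ± 0.07 and SMAD7, the inhibitory SMAD, by 2.24 ± 0.06, whereas NEDD4L, a ubiquitin ligase of this pathway, fell by 1.48 ± 0.05.

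Under alisertib alone 8 of the 65 tested partners passed (12.3%), 5 higher and 3 lower, beside 6.74% of all tested genes. Among the 18 latent TGFβ genes, MMP9 rose by 0.99 ± 0.18 (adjusted p = 0.00492, edgeR). ITGB6, a subunit of an integrin that activates latent TGFβ, rose by 0.75 ± 0.17 (0.0158). FBN1, the main fibrillin to which LTBPs attach, rose by 0.24 ± 0.04 and EFEMP1, a fibulin, fell by 0.35 ± 0.05 among the matrix partners. HTRA1, a secreted protease, fell by 0.32 ± 0.05, ACVR2B fell by 0.34 ± 0.07, and the ubiquitin ligases SMURF2 and NEDD4L rose by 0.31 ± 0.06 and 0.38 ± 0.05. In combination against TGFβ, THBS1, an activator of latent TGFβ, fell by 0.32 ± 0.04, EFEMP1 fell by 0.32 ± 0.05 and NEDD4L rose by 0.31 ± 0.05. These were 3 of the 65 partners (4.62%), beside 2.08% of all tested genes. NEDD4L was thus higher with alisertib both without TGFβ (adjusted p = 0.000549) and with it (0.00585), in separate libraries. Under combination against alisertib the lists gave 10 higher and 5 lower of 18 latent TGFβ genes, and 6 and 1 of 9 matrix partners. They gave 5 and 3 of 10 traps, 2 and 2 of 8 receptors, and 9 and 7 of 20 turnover genes. Of all tested genes 19.4% were higher and 19% lower.

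Among 10245 genes averaging 5 CPM or more, some of those whose log2 CPM followed a member most closely over the 12 libraries are named for the members whose group means differed at least 2-fold. For TGFB2 these were PARD6B (Pearson r = 0.9994) and IL1R1 (0.9986), and for TGFBR3 they were NFIB (0.9969) and FUCA1 (0.9965). For LTBP2 they were COL1A1 (0.999), TAGLN (0.9985) and PLAU (0.9981), and for TGFB1 they were LIMS2 (0.9974), FURIN (0.9973) and CLSTN1 (0.9973). FURIN is the convertase that cleaves the TGFβ propeptide. LTBP3 was closest to PFKFB4 (0.9929) and LTBP4 to RGL2 (0.9982). These values describe 12 libraries that share treatments, depth and the GC-related spread, and the closest genes of TGFB1 have GC contents of 59.1% to 62.4% against 63.5% for TGFB1 itself.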

How the data were processed

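RNA of 12 MDA-MB-231 libraries in 4 groups of 3 was prepared with a kit that does not mark strand, per the labels. Reads were processed with bcl2fastq, TopHat and featureCounts of Subread on hg19, per the submitters' processing notes, which give no versions. The authors deposited raw counts per gene, which were used for all tests, and RPKM values, whose per-library denominators were 1.1 to 1.11 times the total count and which were checked only. All 10 genes are reported from 1 fit over the table (edgeR 4.0.16 in R 4.3.3): filterByExpr kept 20571 of 57773 genes, counts were scaled by TMM, and a robust quasi-likelihood model with 1 mean per group had 8 residual degrees of freedom. P-values were adjusted by Benjamini-Hochberg over all tested genes and called under 0.05; SEs were derived from the F statistics. The script was tested on simulated data. CPM are TMM-scaled counts, and RPKM in the text are these CPM per kilobase of the deposited gene length. GC content was available for 95.5% of tested genes. Alternatives were the 2 groups alone, DESeq2 1.42.0, upper-quartile scaling, other count filters, a threshold of 0.01, a GC and length offset, an indicator of the 4 libraries that stood apart, their removal, and leaving out each library. All members were named in every comparison; partner genes were the up to 3 called genes of a list with the largest change and a mean of at least 1 CPM. The members and lists were chosen with earlier results of these data known. Replicate pairs differed by more than sampling noise. Some genes that this rule or the likeness ranking picked are not reported here.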

Additional observations from a re-analysis of the deposited data

How the results depend on the processing

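For TGFβ against untreated and for combination against alisertib, the same members passed in all 15 alternatives of each. The alisertib comparison called 1 member, and 0 with the fit of 2 groups alone, upper-quartile scaling or a threshold of 0.01, 2 with the 4-library covariate or the GC and length offset, 5 without the 4 libraries that stood apart, and 0 to 2 when single libraries were left out. Combination against TGFβ called 1 member, and 0 with the 2 groups alone, upper-quartile scaling, no count filter or the threshold of 0.01, 4 without the 4 libraries, 3 with the covariate, 2 with the offset, and 0 to 0 when single libraries were left out. The interaction called 0 members, and 3 each without the 4 libraries, with the covariate and with the offset. The cause of these shifts was not tested.

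Over all genes, alisertib called 1387, and 623 with the 2 groups alone, 5073 without the 4 libraries, 4057 with the covariate, 3535 with the offset, 562 at the stricter threshold and 718 to 2598 with single libraries left out, the highest without untreated 1. Upper-quartile scaling moved the share of higher calls there from 52.6% to 62.8%. Combination against TGFβ called 428, and 705 by DESeq2, 1434 without the 4 libraries, 1820 with the covariate, 1689 with the offset, 154 at the stricter threshold and 153 to 243 with single libraries left out. The interaction called 58, and 181 by DESeq2, 105 without a count filter, 744 without the 4 libraries, 382 with the covariate, 339 with the offset, 13 at the stricter threshold and 19 to 166 with single libraries left out. On CPM without division by length, the TGFβ difference in share was -32.7 instead of -38.4 percentage points for TGFB2 and 13.4 instead of 11.2 for TGFBR2.

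Values that changed sign passed neither in the main model nor in the setting that changed it. They were near 0 except for the interactions of LTBP3 and LTBP4, at 0.140 ± 0.274 and 0.144 ± 0.308 in the main model. The LTBP4 interaction was -0.064 without untreated 3, yet passed at 0.31 without the 4 libraries (adjusted p = 0.0318, edgeR). Without the 4 libraries, the alisertib values were -0.045 for TGFB3 and -0.008 for LTBP2. With the offset, TGFBR1 was 0.022 for combination against untreated and 0.028 against alisertib. The TGFB1 interaction of 0.002 was -0.012 by DESeq2, -0.014 by upper-quartile scaling, -0.01 with a filter at 1 CPM in 3 libraries, -0.017 with the covariate and -0.067 with the offset, and the LTBP3 interaction was -0.017 with the offset. With single libraries left out, the alisertib values ran from -0.071 to 0.153 for TGFB3, -0.028 to 0.115 for LTBP2, -0.077 to 0.02 for TGFBR1 and -0.071 to 0.009 for LTBP1. Combination against TGFβ ran from -0.001 to 0.077 for LTBP1 and -0.006 to 0.084 for TGFBR1, and combination against alisertib from -0.08 to 0.005 for TGFBR1. The interaction ran from -0.099 to 0.157 for TGFB1, -0.099 to 0.389 for LTBP3 and -0.064 to 0.397 for LTBP4. No paired analysis was possible because the labels number the libraries 1 to 12 with no number shared between groups. Depth limits TGFB3 only, at 99 to 172 reads per library.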
